A study of Mus musculus with 22 samples.

Results

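The testis-specific serine kinases are a family of 6 genes in the mouse, Tssk1 to Tssk6, and their transcripts were compared in whole testes with and without the transcription factor MLX. The members were taken by gene symbol from the testes RNA sequencing (RNA-seq) count table, and all 6 were found among its 17931 gene symbols. Whole testes of 3 wild-type males (WT1 to WT3), described as verified fertile breeders, were compared with those of 3 Mlx knockout males (KO1 to KO3, together MLX KO), all 7 months of age and untreated. Each MLX KO male was set against a WT littermate of its age, and the 3 pairs share a replicate number. MLX KO mice carry a whole-body deletion of the exons that encode the basic helix-loop-helix leucine zipper of MLX, on a 129S4 background. A Meox2-driven Cre made the deletion and was then crossed out, and which of the independently derived lines gave these testes is not given in the sources used here.

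TSSK proteins are serine/threonine kinases on the branch of the kinase tree that also holds AMP-activated protein kinase (AMPK). They are made after meiosis, in spermatids (St), the haploid cells that condense their chromatin with protamines, build a flagellum and become spermatozoa. TSSK1 and TSSK2 bind the scaffold and substrate TSKS, TSSK4 phosphorylates the flagellar protein ODF2, and TSSK6, also called SSTK, is needed for normal chromatin condensation in elongating St. Male mice that lack both Tssk1 and Tssk2, or Tssk6, are infertile.

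The genes lie on 5 chromosomes of mm10. Tssk1 (chr16:17894203-17895653) and Tssk2 (chr16:17898637-17900024) follow each other on the plus strand with 2983 bp between them, and each is a single exon. Tssk6 (chr8:69902184-69903518, plus strand) is also a single exon, while Tssk3 (chr4:129489008-129491730, minus strand) has 2 exons. Tssk4 (chr14:55643651-55652539, plus strand) has 4 in its longest curated transcript and Tssk5 (chr15:76371958-76375191, minus strand) has 8. These coordinates span the whole RefSeq gene. The coding sequences of Tssk1 and Tssk2 were 82.0% identical over 1048 aligned bases, against 61.1% to 65.1% for the other 14 pairs of members. The coding sequence of Tssk6 stood apart in base composition, with 63.7% G and C against 52.5% to 55.0% in the other members.

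The windows around the starts of Tssk1 and Tssk2, 250 bases before to 50 after, are shown because these neighbours also shared sequence outside their coding regions. Both are on the plus strand of mm10, from RefSeq, at chr16:17893953-17894252 and chr16:17898387-17898686, and the capitals mark the stretch that a local alignment matched, with 41 of 49 aligned bases identical.
Tssk1: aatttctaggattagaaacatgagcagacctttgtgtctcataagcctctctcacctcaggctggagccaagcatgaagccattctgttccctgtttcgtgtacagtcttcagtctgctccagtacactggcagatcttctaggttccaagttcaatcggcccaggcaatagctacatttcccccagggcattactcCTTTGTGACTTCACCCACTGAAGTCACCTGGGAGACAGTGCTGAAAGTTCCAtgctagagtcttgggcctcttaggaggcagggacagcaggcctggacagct
Tssk2: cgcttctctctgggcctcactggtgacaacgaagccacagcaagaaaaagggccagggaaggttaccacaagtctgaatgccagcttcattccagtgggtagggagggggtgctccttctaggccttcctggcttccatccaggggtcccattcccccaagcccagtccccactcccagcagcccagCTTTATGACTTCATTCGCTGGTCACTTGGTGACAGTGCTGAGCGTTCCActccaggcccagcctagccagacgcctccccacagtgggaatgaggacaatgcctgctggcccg
The matched stretch ran from base -53 to -2 before the start of Tssk1 and from -63 to -15 before that of Tssk2, and no other pair among the 5 members with a window aligned over more than 20 bases. Within it both windows hold TGACTTCA, which 1.52% of the 32851 RefSeq windows of this length hold on either strand, and which was chosen after the windows were read. Neither the cyclic AMP response element TGACGTCA, in 1.79% of all windows, nor the E-box CACGTG, in 7.15%, was found in any of the 5 windows. The shorter TGACG, in 20.81% of windows, was found in that of Tssk6 alone, and TATAAA, in 13.62%, in none. All were searched on both strands, and TGACG is part of TGACGTCA. The windows of Tssk3 (chr4:129490721-129491020) and Tssk4 (chr14:55649934-55650233) lie inside the gene spans given above, not at their ends. A match of letters is a description of the window and was not tested as a binding site.

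The 6 libraries held 16674678 to 19742726 counts. KO1 stood apart from KO2 and KO3: counts differed between KO1 and either of them by a chi-square per degree of freedom of 8.29, against 2.74 to 4.31 for the other pairs within a genotype. Mlx itself had 96 to 128 counts per WT library and 94 to 109 per MLX KO library (adjusted p = 0.326, edgeR), and counts over the whole gene do not check a deletion of internal exons. Of the 14640 genes tested with edgeR, 45.4% passed the threshold of an adjusted p of 0.05. MLX KO was lower for 20.6% of genes tested and higher for 24.8%, or 3015 and 3634 differentially expressed genes (DEGs). With libraries scaled by their totals alone the split was 1268 lower and 5343 higher.

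All 6 Tssk genes were measured, with 277 to 412 counts per library for Tssk5 and at least 1927 for every other member, and all passed the filter on low counts. All but Tssk5, 5 members, fell in MLX KO testes, by 13.6% to 31.0%, against the 20.6% of all genes that were lower. Each of the 6 was lower in MLX KO than in WT in all 3 pairs. The share of all genes lower in all 3 pairs, or without overlap between genotypes, was not computed. The median log2 fold change (LFC) of the 6 was -0.28, against 0.025 for all genes tested. Levels are given as CPM, counts relative to the library size after scaling by the trimmed mean of M-values (TMM), with the mean ± SD of 3 libraries, and every LFC is MLX KO against WT with its SE. With library totals as the only scaling the LFC was -0.15 for Tssk1, -0.13 for Tssk2, -0.25 for Tssk3 and -0.40 for Tssk6. These 4 members passed, against 1268 lower genes among the 14640 tested. Without KO1 the LFCs lay between -0.59 for Tssk6 and -0.27 for Tssk4, and 5 members passed. In that fit 3405 of all genes tested were lower and 3990 higher.

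**Figure D1:**
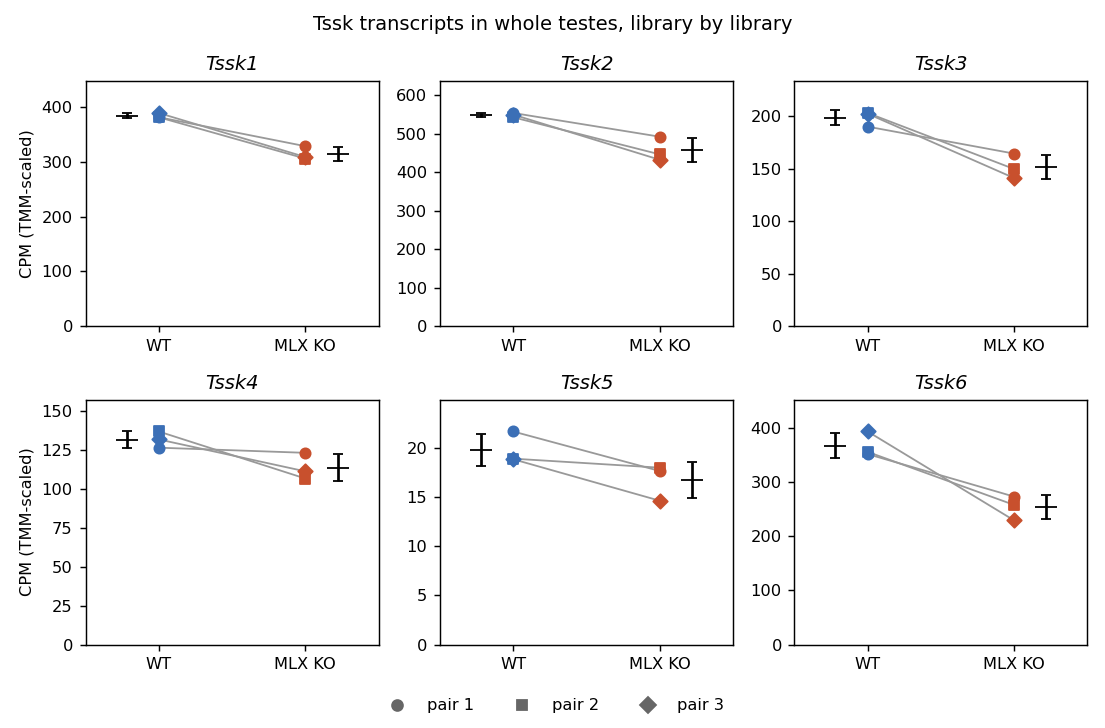
Level of each Tssk gene in every library, in TMM-scaled CPM on a linear axis from 0, with WT in blue and MLX KO in red. Grey lines join the littermates of a pair, and black bars give the mean ± SD of 3 libraries. All 18 lines go down from WT to MLX KO, and the share of all genes that fall in all 3 pairs was not computed.

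Tssk6 had the largest fall of the family. It stood at 352, 356 and 394 CPM in WT1, WT2 and WT3 and at 274, 258 and 230 CPM in KO1, KO2 and KO3. Every MLX KO library was below every WT library. The mean went from 368 ± 23.1 to 254 ± 22.3 CPM, an LFC of -0.53 ± 0.069 (adjusted p = 0.000154). Of all genes tested, 2.60% had a lower LFC. Of the Tssk6 exon, 375 bp, or 28.1%, overlap an exon of Ndufa13 on the opposite strand, a gene for a subunit of mitochondrial complex I. Whether reads were counted by strand is not given in the sources used here, and without strand, reads from the shared stretch cannot be told apart. Ndufa13 stood at 98.9 ± 6.22 CPM in WT and 82.1 ± 5.24 CPM in MLX KO, with an LFC of -0.27 ± 0.063 (adjusted p = 0.00521), and its part in the Tssk6 value was not tested.

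Tssk3, a kinase of St that PDPK1 can activate, had the next largest fall. Its levels were 190, 203 and 202 CPM in WT1 to WT3 and 164, 150 and 141 CPM in KO1 to KO3. The genotypes did not overlap, and the log2 ratio of MLX KO to WT was -0.21 in pair 1, -0.44 in pair 2 and -0.52 in pair 3. The mean went from 198 ± 7.30 to 152 ± 11.8 CPM, an LFC of -0.39 ± 0.061 (adjusted p = 0.000491).

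Tssk1 and Tssk2, the neighbours that both bind TSKS, fell by similar amounts. Tssk1 was at 382, 382 and 390 CPM in the WT libraries and at 329, 306 and 309 CPM in the MLX KO libraries. Its mean went from 384 ± 4.45 to 315 ± 12.4 CPM, an LFC of -0.29 ± 0.048 (adjusted p = 0.000673). Tssk2 was at 554, 543 and 550 CPM in the WT libraries and at 493, 447 and 433 CPM in the MLX KO libraries. Its mean went from 549 ± 5.64 to 457 ± 31.5 CPM, an LFC of -0.26 ± 0.055 (adjusted p = 0.00276). WT libraries of both genes lay close together, KO1 was the highest MLX KO library for both, and neither gene had overlapping genotypes. The log2 ratio of Tssk1 to Tssk2 counts within a library was -0.52 ± 0.021 in WT and -0.54 ± 0.049 in MLX KO, with overlapping ranges (exact permutation test, two-sided, p = 0.6). Some reads could fall to either gene, since 125 of the 1339 stretches of 50 bases in Tssk2 exons, or 9.3%, also occur in Tssk1. Tssk1 lies within Dgcr2, a gene on the opposite strand that shares 63 bp of exon with it and had an LFC of -0.089 ± 0.046 (adjusted p = 0.135).

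Tssk4, the kinase of ODF2, had the smallest LFC of the family. It was at 126, 137 and 132 CPM in WT1 to WT3 and at 123, 107 and 111 CPM in KO1 to KO3. KO1 lay just below WT1, so that the genotypes did not overlap, but the log2 ratio in pair 1 was only -0.038. The mean went from 132 ± 5.18 to 114 ± 8.53 CPM, an LFC of -0.21 ± 0.060 (adjusted p = 0.0143). Without WT2, KO2 or KO3 the adjusted p was 0.0650, 0.0728 or 0.0566, and with library totals as the only scaling the LFC was -0.073 and the adjusted p 0.250.

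Tssk5 was the least abundant member and the only one that did not pass the threshold. Its levels were 21.7, 19.0 and 18.9 CPM in WT1 to WT3 and 17.7, 18.0 and 14.7 CPM in KO1 to KO3. No MLX KO library reached the lowest WT library, and KO3 stood below the rest. The LFC was -0.24 ± 0.10 (adjusted p = 0.0691), with the widest error of the family. With the littermate pair as a block in edgeR the LFC was -0.25 ± 0.091 and the adjusted p 0.0376, which passes the threshold, while in DESeq2 with the same block the adjusted p was 0.166. Without KO3 the LFC was -0.15 (adjusted p = 0.275) and without WT1 it was -0.17 (adjusted p = 0.238), both in edgeR.

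**Figure D2:**
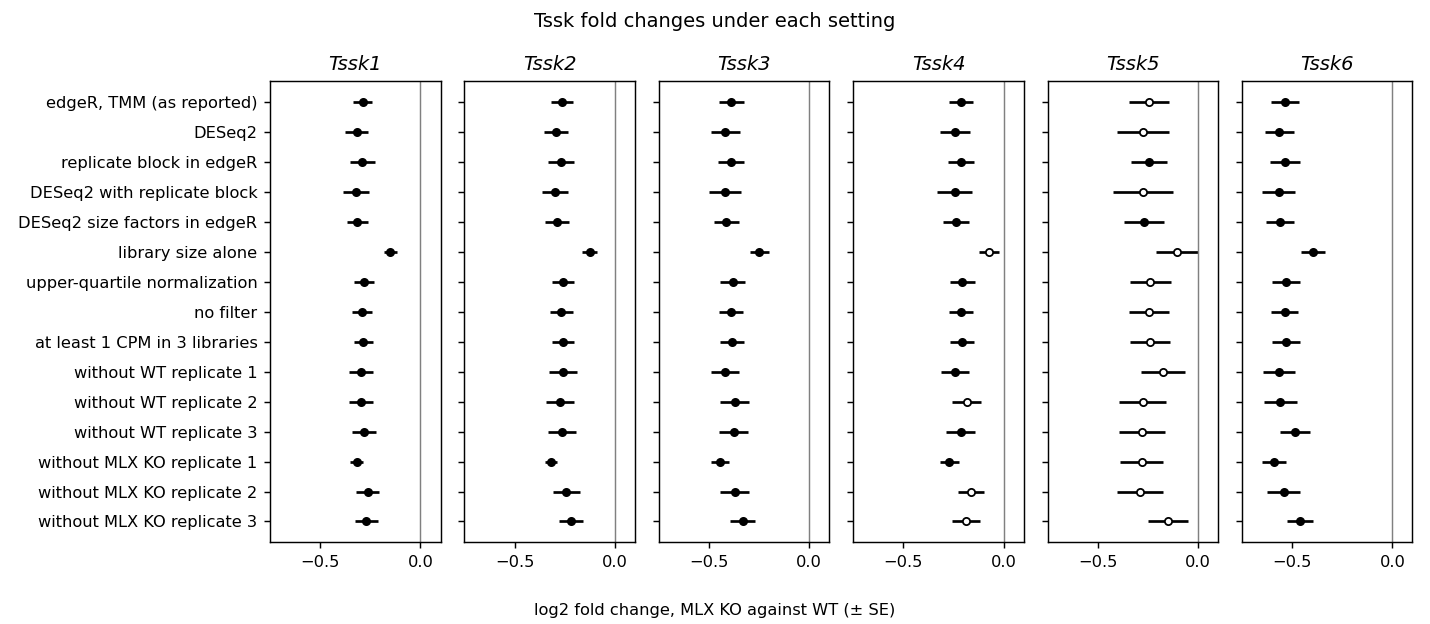
LFC ± SE of each Tssk gene, MLX KO against WT, in the reported fit and under 14 other settings, with filled points for an adjusted p under 0.05 and open points otherwise. Every point lies below 0, and the calls that change are those of Tssk4 and Tssk5.

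Levels can be compared between members only per length of transcript, and here CPM were divided by the curated RefSeq exon length in kb. On this scale of CPM per kb, Tssk2 was the most abundant in WT, at 396 ± 4.07, followed by Tssk6 at 275 ± 17.3, Tssk1 at 265 ± 3.07, Tssk3 at 192 ± 7.06, Tssk4 at 92.7 ± 3.65 and Tssk5 at 13.1 ± 1.07. Tssk6 and Tssk1 had overlapping WT libraries, and no other neighbours in that order did. In MLX KO, Tssk1, at 217 ± 8.52 CPM per kb, stood above Tssk6, at 190 ± 16.7, without overlap, and the rest of the order was as in WT. The place of Tssk1 depends on its gene model: GENCODE gives it 3700 bp of exon where RefSeq gives 1451 bp, and with GENCODE lengths Tssk1 came after Tssk2, Tssk6 and Tssk3 in both genotypes.

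The make-up of the family shifted within libraries, a measure that does not depend on how libraries are scaled. Tssk6 made up 21.7%, 21.8% and 23.4% of the family's counts per kb in WT1 to WT3 and 19.6%, 20.2% and 18.7% in KO1 to KO3. MLX KO minus WT was -2.81 percentage points, and the libraries did not overlap (exact permutation test, two-sided, p = 0.1, the smallest that 3 against 3 allows, and 0.2 adjusted over the 6 shares). Tssk2 held 32.9%, 31.9% and 31.4% in WT1 to WT3, against 34.01%, 33.6% and 33.9% in KO1 to KO3, without overlap and with the same p. Tssk1 went from 21.5% ± 0.198 to 22.3% ± 0.742, also without overlap, but KO1 at 21.71% lay just above WT1 at 21.68%. The Tssk1 difference of 0.813 percentage points was 0.395 without KO3. The shares of Tssk3, Tssk4 and Tssk5 overlapped between genotypes, with WT means of 15.5%, 7.52% and 1.06% against MLX KO means of 15.04%, 8.22% and 1.14%.

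**Figure D3:**
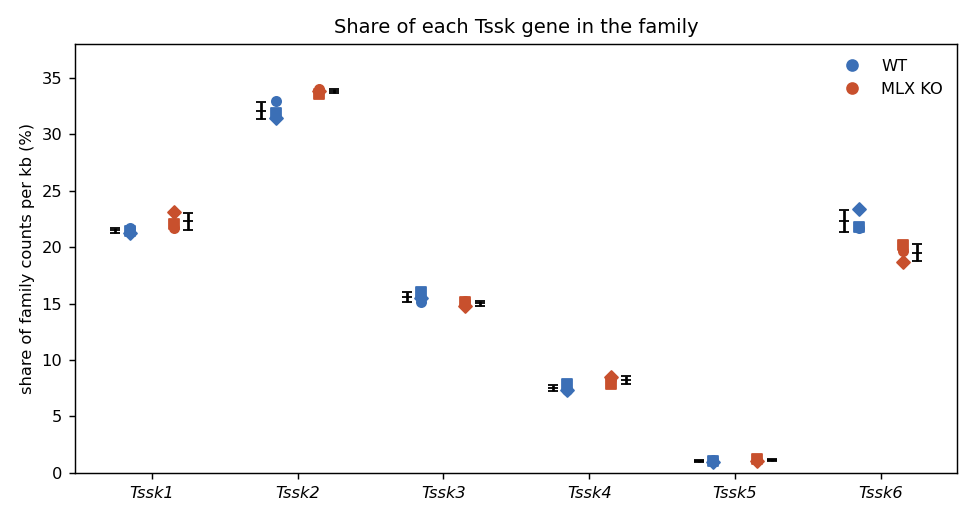
Share of each Tssk gene in the summed counts per kb of the family, in percent, for each WT (blue) and MLX KO (red) library, with bars for the mean ± SD of 3 libraries and one marker shape for each pair. The MLX KO libraries sit between 18.7% and 20.2% for Tssk6, all below WT, and between 33.6% and 34.01% for Tssk2, all above WT.

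The same counts were compared as ratios between members. In 7 of the 15 pairs of members the count ratios of WT and MLX KO libraries did not overlap, and 5 of those 7 were the pairs with Tssk6. These 5 pairs all use the same Tssk6 counts and are not separate observations. The share of all gene pairs without overlap was not computed. The log2 ratio of Tssk1 to Tssk6 counts was 0.12, 0.099 and -0.017 in WT1 to WT3 and 0.27, 0.25 and 0.43 in KO1 to KO3. The other pairs without overlap set Tssk3 against Tssk2 and against Tssk4. Each of the 7 had p = 0.1 in the exact permutation test, or 0.214 adjusted over the 15 pairs.

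Marker lists of testis cell types, St among them, were compared between genotypes in the same libraries. In whole tissue, fewer cells of a type and less RNA per cell cannot be told apart. Of all genes tested, 20.6% were lower and 24.8% higher in MLX KO with TMM scaling. All 12 elongating St markers fell, with a median LFC of -0.54, among them Prm2, a protamine, from 5362 ± 264 to 3205 ± 375 CPM, and the flagellar anchoring protein Akap4, with an LFC of -0.50 ± 0.067. All 10 round St markers fell, with a median of -0.26, as did 7 of 10 spermatocyte markers, with a median of -0.16. With library totals as the only scaling, 12 elongating St, 4 round St and 1 of the spermatocyte markers were lower and passed. Among all 14640 genes tested, 1268 were lower and 5343 higher under it. Of 8 spermatogonium markers, 2 rose, near the share of all genes tested, and 1 fell, with 3 that rose under that scaling. All 9 Sertoli cell markers rose, with a median LFC of 0.78, as did all 6 Leydig cell markers, with 1.16, all 6 macrophage markers measured, with 1.21, and 4 of 5 endothelial and peritubular myoid cell markers, with 0.56. The part of these shifts in the Tssk values was not tested.

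Summed over its members, the family stood at 1627, 1640 and 1687 CPM in WT1 to WT3 and at 1400, 1285 and 1238 CPM in KO1 to KO3. Within pairs 1, 2 and 3 the log2 ratio of MLX KO to WT was -0.22, -0.35 and -0.45. The summed elongating St list gave -0.46, -0.66 and -0.80 in the same pairs, the round St list -0.17, -0.32 and -0.25, and the Leydig cell list 1.18, 1.49 and 1.42. Pair 1 had the smallest difference in each of these 4 sums. The endothelial and peritubular myoid cell list went the other way, with 0.72 in pair 1 against 0.56 and 0.51 in pairs 2 and 3.

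**Figure D4:**
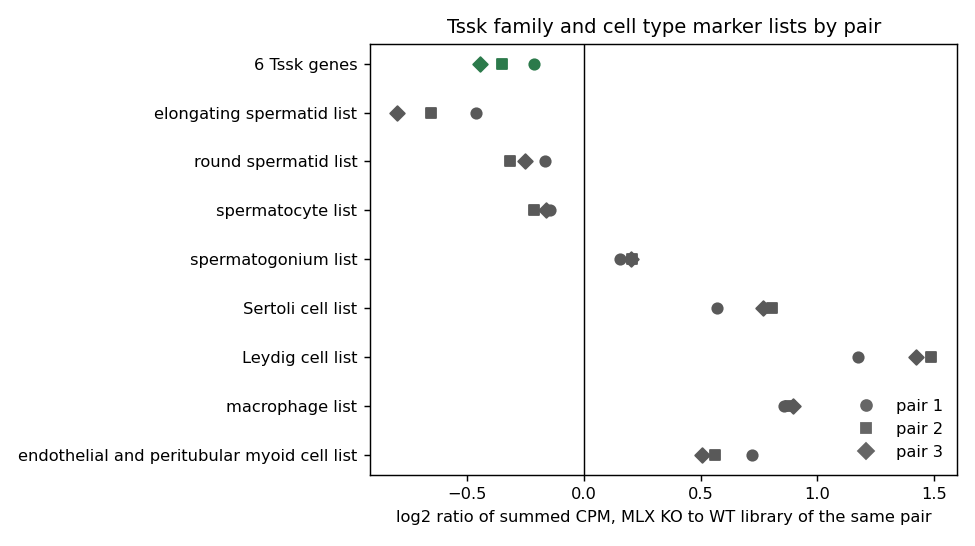
Log2 ratio of summed CPM between the MLX KO and the WT library of each pair, for the 6 Tssk genes (green) and for 8 cell type marker lists (grey), with one marker shape for each pair. The family lies between -0.45 and -0.22, the elongating St list between -0.80 and -0.46, and the Leydig cell list between 1.18 and 1.49.

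Relative to the elongating St list, the family was higher in MLX KO than in WT. The log2 ratio of the family's summed CPM to that of the list was -3.90, -3.90 and -3.91 in WT1 to WT3 and -3.66, -3.60 and -3.55 in KO1 to KO3, a difference of 0.30. Against the round St list the difference was -0.092, and against the spermatocyte list -0.16. The genotypes did not overlap in any of the 3 ratios, and each had p = 0.1 in the exact permutation test, the smallest possible (0.1 adjusted over the 3). Against the geometric mean of the round St list the genotypes did overlap, with a difference of -0.094 (exact permutation test, p = 0.2).

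Single members differed in how they stood to these lists. Tssk6 stood to the elongating St list at a log2 ratio of -6.07 ± 0.060 in WT and -5.97 ± 0.052 in MLX KO, a difference of 0.10 (exact permutation test, p = 0.2). Each of the other 5 members was higher relative to that list in MLX KO, by 0.25 for Tssk3 to 0.43 for Tssk4, with p = 0.1 for each in the same exact test (0.164 adjusted over 18 values). Relative to the round St list, MLX KO minus WT was -0.29 for Tssk6 and -0.14 for Tssk3, both with an exact p of 0.1, against 0.032 for Tssk4 and 0.0017 for Tssk5. None of these 18 values, 6 members against 3 lists, could pass the threshold with 3 libraries a genotype.

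Genes linked to TSSK proteins, named here partners, chaperones and substrates, were followed as a list of 11 genes. The name is a label for the list, and a direct role was not tested for any of them, Izumo1 included. Of these, 7 fell (63.6%) and 2 rose (18.2%), with a median LFC of -0.22, against 20.6% and 24.8% of all genes tested. With library totals as the only scaling 4 fell and 3 rose, against 1268 and 5343 of all 14640 genes tested. Tsks, the scaffold of TSSK1 and TSSK2, was at 670 ± 8.48 CPM in WT and 497 ± 34.9 CPM in MLX KO, an LFC of -0.43 ± 0.056 (adjusted p = 0.000161). Tsacc, the co-chaperone that links TSSK6 to HSP90, fell by 19.3% (LFC -0.31 ± 0.056, adjusted p = 0.00120). Odf2, the outer dense fibre protein and substrate of TSSK4, was the most abundant of the list, at 5457 ± 87.5 CPM in WT, and had an LFC of -0.43 ± 0.066 (adjusted p = 0.000442). The other 4 that fell were Izumo1, the sperm receptor for the egg membrane, Ppp1cc, the catalytic phosphatase subunit whose testis form joins TSKS, Pdpk1, the kinase upstream of TSSK3, and Spag16, a protein of the axoneme, with LFCs between -0.25 and -0.21. Izumo1, Pdpk1 and Spag16 lost their calls with library totals as the only scaling (adjusted p = 0.0534, 0.0985 and 0.252). Spag16 also lost its call without WT1, KO2 or KO3, with an adjusted p of 0.0576, 0.0588 or 0.0679.

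Both genes of the list that rose encode chaperones with roles in all cells. Hspa8, the constitutive HSP70, went from 305 ± 7.52 to 406 ± 28.3 CPM, an LFC of 0.41 ± 0.057 (adjusted p = 0.000232). Hsp90ab1, the constitutive HSP90, had an LFC of 0.23 ± 0.046 (adjusted p = 0.00201). Hsp90aa1, the HSP90 form abundant in male germ cells, did not pass the threshold, with an LFC of -0.12 ± 0.053 (adjusted p = 0.0905) that was 0.021 with library totals as the only scaling, but it passed without KO1 (adjusted p = 0.00138) and in DESeq2 (adjusted p = 0.0150). H2afx, the gene of histone H2AX, stood at 41.7 ± 0.651 CPM in WT and 42.3 ± 0.741 CPM in MLX KO, an LFC of 0.020 ± 0.055 (adjusted p = 0.790), and with library totals as the only scaling it rose, with an LFC of 0.16 (adjusted p = 0.0412), while its LFC was -0.010 in DESeq2.

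**Figure D5:**
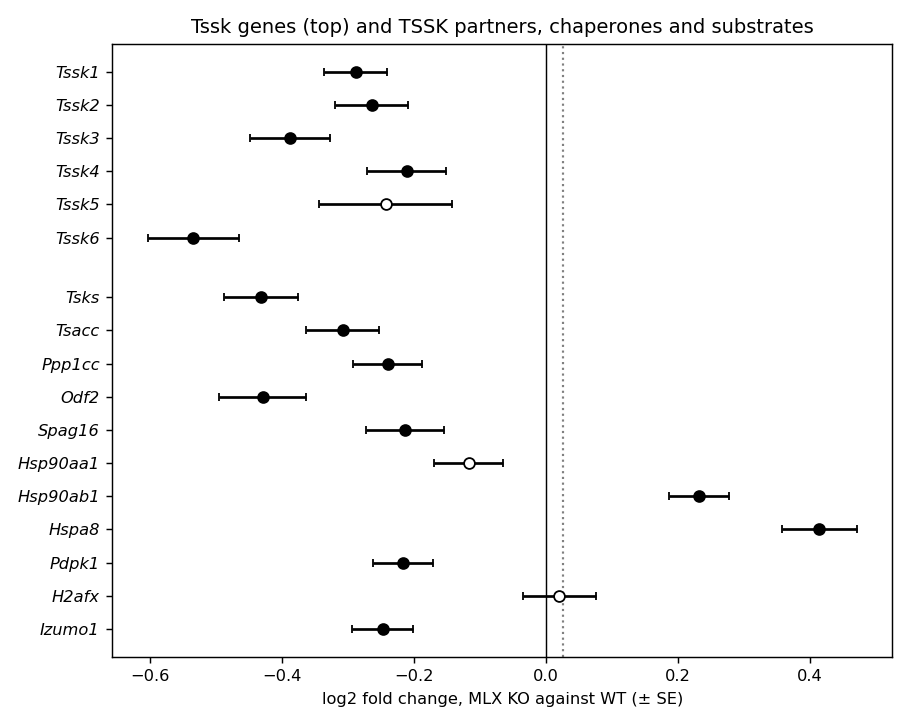
LFC ± SE, MLX KO against WT, of the 6 Tssk genes (upper group) and of the 11 partners, chaperones and substrates of TSSK proteins (lower group). Filled points passed an adjusted p of 0.05, open points did not, and the dotted line marks the median of all genes tested, 0.025. Hspa8 and Hsp90ab1 are the only filled points above 0, and Tssk6 lies lowest.

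Kinases outside the family were followed as a list of male germ cell kinases and a list of kinases related by structure. Of 12 other kinases of male germ cells, 9 fell, against 20.6% of all genes tested. All 12 LFCs were negative, with a median of -0.20 against 0.025 for all genes tested. The share of all genes with a negative LFC was not computed. The largest falls past the threshold were those of Stk35, a nuclear kinase, at -0.33 ± 0.057 (adjusted p = 0.000954), and of Camk4, the calcium/calmodulin-dependent kinase, at -0.32 ± 0.073 (adjusted p = 0.00496). With library totals as the only scaling, 2 of the 12 fell and 10 LFCs were negative. The median was then -0.057, against 0.16 for all genes. Under that scaling 1268 of all 14640 genes tested fell. Of 17 genes for AMPK catalytic subunits, related kinases and their upstream kinase Stk11, 4 fell (23.5%) and 3 rose (17.6%), near the 20.6% and 24.8% of all genes tested, with a median LFC of 0.023. The largest increases were those of Nuak2, at 0.56 ± 0.12, and of the microtubule affinity-regulating kinase Mark4, at 0.56 ± 0.085, and the largest decreases those of Hunk, at -0.31 ± 0.074, and Brsk1, at -0.21 ± 0.048. Without KO3, 4 of the 17 passed, in a fit where 5199 of all genes passed against 6649 with all libraries. With library totals as the only scaling 5 of the 17 rose, against 5343 of all 14640 genes tested. Hunk and Brsk1 lost their calls under it (adjusted p = 0.0972 and 0.265).

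The levels of most members varied together across libraries. On the log2 CPM scale, Pearson correlations over the 6 libraries were 0.962 to 0.982 among Tssk1, Tssk2, Tssk3 and Tssk6, and lowest for Tssk4 with Tssk5, at 0.561. These libraries share 1 genotype difference, so that any gene lower in MLX KO correlates with the family. Over the same libraries, 8.95% of the 14634 other genes had a correlation over 0.95 with the mean of the 6 Tssk genes. The 5 most alike were Tsacc (r = 0.9993), the testis HSP70 gene Hspa1l (0.9991), Rasa3 (0.9991), which encodes a Ras GTPase-activating protein, Vars (0.9988), which encodes valyl-tRNA synthetase, and Dcun1d4 (0.9986). Tsacc was at 98.9 to 100.7 CPM in WT1 to WT3 and at 86.5, 80.1 and 75.2 CPM in KO1 to KO3.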

How the data were processed

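RNA from whole testes was sequenced in 6 libraries, as paired-end reads. The authors aligned reads to mm10 with TopHat and deposited 1 table with raw counts per gene symbol. The counting tool, its strand setting and the annotation are not given in the sources used here. Bowtie2, bcl2fastq 1.8.4, DESeq2 and bedtools are also named in the submitters' processing notes. The table's columns of the authors' own comparison (mean level, fold changes with errors, p-values) were not used, and the ChIP-Seq samples were not analysed here. Of 17933 rows, 2 repeated another.

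The main fit used edgeR 4.0.16 in R 4.3.3 (filter at a minimum count of 10, TMM, quasi-likelihood test, genotype only, Benjamini-Hochberg over 14640 genes, threshold 0.05). DESeq2 1.42.0, a pair block, other scalings and filters, and each library left out were alternatives. The edgeR fit was tested on simulated counts. Other tests were exact two-sided permutation tests over libraries, which moved single libraries between genotypes and did not use the littermate pairs. Titles number the libraries as paired replicates, which the study describes as littermates. The 3 littermate pairs had correlations of 0.145, 0.0363 and 0.121 across genes between their deviations from the group means, in order of pair number. WT and MLX KO libraries of unlike number had -0.123 to 0.0330, so that pair 2 stood close to the highest of these. Lengths, overlaps and sequences came from RefSeq and GENCODE for mm10. Of the 6 members, 5 had a promoter window, and Tssk5 had none.

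Named genes were the 6 members, every partner, of the other kinase lists the largest changes past the threshold (up to 2 in each direction), up to 2 of the most abundant genes of a marker list, and the 5 genes most alike. The overlapping gene Ndufa13 was added after its overlap was seen. The members and lists were chosen with earlier results of these data known.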

Additional observations from a re-analysis of the deposited data

How the results depend on the processing

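The 20 results were the LFCs, shares and list ratios of the Tssk genes, and the numbers that passed among them, the 3 kinase and partner lists and all genes. Of 223 alternative values, 215 kept direction and side of the threshold, moved by less than the spread between libraries, or, for counts, stayed within 1.5 times. A number of genes has no direction, so for those counts no reversal was possible. Of the other values none changed direction. Single partners outside those 20 did: Hsp90aa1 went from -0.118 to 0.0212 with library totals as the only scaling, and H2afx from 0.0200 to -0.0103 in DESeq2. The number of Tssk genes that passed ranged from 4 to 6. Under the replicate block, which fits each littermate pair, Tssk5 had an LFC of -0.245 (adjusted p = 0.0376) and all 6 members passed, and with DESeq2 size factors in edgeR Tssk5 had -0.269 (adjusted p = 0.0452). The block changed no other call of a Tssk gene. In DESeq2, with or without the block, 5 members passed. With library totals as the only scaling, which moved the median LFC of all genes up by 0.139, Tssk4 had -0.0732 (adjusted p = 0.250), 2 of the other germ cell kinases passed in place of 9, and Tssk1, Tssk2, Tssk3 and Tssk6 passed with LFCs of -0.150, -0.126, -0.250 and -0.397. With 1 library left out, the LFC of Tssk4 ranged from -0.270 to -0.162, with calls lost without WT2, KO2 or KO3, that of Tssk5 from -0.291 to -0.149, and the AMPK-related kinases that passed ranged from 4 to 7. Among all genes, the number that passed with 1 library left out ranged from 5130 without KO2 to 7395 without KO1. Cause was not tested for any of these changes. GENCODE exon lengths, an alternative added after seeing the data, left the direction of every share as it was. With 3 libraries a genotype, no exact permutation test can give a p below 0.1. Same-numbered replicates are littermates, but p-values cover only the spread between these 6 libraries.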

Other observations

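The genes Hspa1l and Vars, among the 5 most alike to the Tssk family over the 6 libraries, lie on the same chromosome, 21678 bp apart in RefSeq for mm10 (chr17:34972703-34979228 and chr17:35000907-35016329). Hspa1l was at 911, 914 and 916 CPM in WT1 to WT3 and at 731, 667 and 615 CPM in KO1 to KO3, and Vars at 795, 799 and 814 CPM in WT1 to WT3 and at 646, 598 and 555 CPM in KO1 to KO3. Both had no overlap between genotypes, with LFCs of -0.44 ± 0.062 and -0.42 ± 0.059 (edgeR, adjusted p = 0.000249 and 0.000246). Both genes were picked for their correlation with the family over these same libraries, so a difference between genotypes follows from the choice. How often genes picked in this way lie this close was not computed.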
